A study of Mus musculus with 4 samples.

Results

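Solute carriers are the membrane proteins that move amino acids, sugars, metals, ions, vitamins and metabolites across the plasma membrane and the membranes of organelles. The genes described here are those whose symbol begins with Slc, a family number, a and a member number. Slc40a1, Slc11a1, Slc2a1 and Slc4a1 were left out. Of 282 such symbols with a read in any library, 154 reached 10 CPM in at least 1 of the 4 libraries and were kept, out of 10312 genes that reached it and 17008 genes with a read. CPM is a gene's uniquely mapped reads scaled to a common library size. The 128 other symbols stayed under 10 CPM in every library, with a median highest level of 0.880 CPM, and 40 of them had at most 3 reads in each library. The members nearest the limit were Slc16a13 at 10.7 CPM inside it and Slc6a13 at 9.54 CPM outside it.

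Each library holds RNA of macrophages that had been sorted from either organ, bone marrow or spleen, of C57BL/6J mice aged 6 to 8 weeks. The T-ALL mice had T cell acute lymphoblastic leukaemia 21 days after transplant of GFP+ leukaemia cells from leukaemic mice, without irradiation, and such mice survived 35 to 40 days. The libraries titled normal are taken as day 0, the other sorting day that the labels give. The groups are T-ALL bone marrow, normal bone marrow, T-ALL spleen and normal spleen, with 1 library each. Sort markers, mouse numbers, pooling and sex were not stated in the material used.

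Since each group is 1 library, no difference has a replicate check and none carries a p-value. The size rule for a call, higher or lower, was a change of 2-fold or more on log2(CPM + 1) and a level of 10 CPM or more in whichever library was higher. Folds are ratios of CPM without a pseudocount, and the range in parentheses is the exact binomial 95% interval of the pair of counts. These intervals cover counting error only and treat reads as independent molecules. In bulk RNA, fewer cells of a type and less RNA per cell cannot be told apart.

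Cells take up amino acids through exchangers such as the light chains among the Slc7 carriers, which pair with the heavy chain Slc3a2. Lactate and other monocarboxylates cross with protons through Slc16 carriers, and the Slc25 family serves the inner mitochondrial membrane. Macrophages digest what they engulf in lysosomes, and carriers in that membrane release the peptides, nucleosides, amino acids and metals.

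The library totals after scaling ran from 8.94e+06 to 9.86e+06 reads, so that 1 read was worth 0.101 to 0.112 CPM. All 20 genes of a macrophage list had reads in each library, and their summed level was 11635 CPM in T-ALL bone marrow, 3965 CPM in normal bone marrow, 8030 CPM in T-ALL spleen and 14611 CPM in normal spleen. Of these, Lyz2 stood at 5494, 2572, 241 and 946 CPM in the same order. It made up a large part of both bone marrow sums, so the summed levels of the organs depend on it. Neutrophil precursor genes (12, none at 0 reads) summed to 19854, 37319, 195 and 421 CPM in the same order, and mature neutrophil genes (8, none at 0) to 14089, 15683, 122 and 336 CPM. T cell genes (14, none at 0) summed to 853, 225, 3912 and 1161 CPM. B cell genes (10, with Igll1 at 0 reads in normal spleen) summed to 424, 479, 1127 and 2370 CPM. Erythroid genes (14, none at 0) summed to 398, 372, 423 and 259.9 CPM. Dendritic cell genes (9, none at 0) summed to 252, 185, 331 and 1148 CPM. Basophil and mast cell genes (7, none at 0) summed to 1507, 2979, 31.9 and 46.5 CPM, and cell cycle genes (16, none at 0) to 3380, 5329, 3987 and 1023 CPM. Xist, which is made from an inactive X, was at 0.644 CPM in T-ALL bone marrow, 861 CPM in normal bone marrow, 416 CPM in T-ALL spleen and 849 CPM in normal spleen. Ddx3y, a Y-linked gene, was at 93.8 and 57.6 CPM in T-ALL bone marrow and spleen and at 0 reads in both normal libraries. Ddx3y thus moved with condition, while Xist also differed between the T-ALL libraries. Sex-linked transcripts therefore differed in the organ comparison of T-ALL mice as well. In the folds of T-ALL over normal, a difference in the sex of the cells cannot be told apart from condition.

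The solute carriers as a whole took a similar share of each library. Their summed level was 9349 CPM in T-ALL bone marrow, 8696 CPM in normal bone marrow, 9802 CPM in T-ALL spleen and 10454 CPM in normal spleen. Of the 154 members, 138 reached 10 CPM in T-ALL bone marrow, 129 in normal bone marrow, 136 in T-ALL spleen and 144 in normal spleen. The 67 members whose highest level was in normal spleen outnumbered those highest in normal bone marrow (39), T-ALL spleen (31) and T-ALL bone marrow (17). Neither count was made over all genes, so neither shows a trait particular to solute carriers. Normal spleen was also the library in which the macrophage list summed highest.

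Per length of transcript, mitochondrial carriers led in every library. Slc25a5, an ADP/ATP carrier encoded on the X chromosome, stood at 443 RPKM in T-ALL bone marrow, 473 RPKM in normal bone marrow, 736 RPKM in T-ALL spleen and 317 RPKM in normal spleen. Slc25a3, which brings phosphate into mitochondria, followed at 225, 236, 446 and 185 RPKM in the same order. Slc44a2, a choline transporter-like protein, was among the 5 highest in each library, at 98.8, 69.6, 94.0 and 159 RPKM. Slc9a3r1 stood at 77.9, 84.5, 83.1 and 78.8 RPKM. It matches the symbol rule but encodes a scaffold protein. Slc4a1ap, Slc7a6os and Slc2a4rg-ps are also no transporters and are only named after one. Slc46a3, a protein of the lysosomal membrane, was among the 5 highest in normal spleen at 96.6 RPKM, against 17.0 RPKM in T-ALL spleen. Among amino acid carriers the highest value in any library was that of Slc3a2 in T-ALL spleen, and its levels were 55.7, 51.8, 78.6 and 64.4 RPKM. Slc1a5 was above it in the other 3 libraries, at 68.9 RPKM in T-ALL bone marrow, 72.6 RPKM in normal bone marrow and 68.2 RPKM in normal spleen. Among metal carriers the highest value in any library was that of Slc39a7, a zinc carrier of the endoplasmic reticulum, whose levels were 53.9, 62.6, 60.0 and 64.0 RPKM.

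Sorted into 10 substrate classes, the summed levels had T-ALL to normal ratios from 0.536 to 1.46 in spleen and from 0.859 to 1.39 in bone marrow. The 32 mitochondrial carriers summed to 2867 CPM in T-ALL spleen, against 1964 CPM in normal spleen, 1.46-fold higher (1.43 to 1.49). The 7 carboxylate carriers summed to 272 CPM in T-ALL spleen, against 190 CPM in normal spleen, 1.43-fold higher (1.35 to 1.53), though their median log2 fold was -0.77. Without Slc16a1 the other 6 summed to 116 CPM in T-ALL and 164 CPM in normal spleen, a ratio of 0.708. The ratio of T-ALL to normal spleen was below 1 for inorganic ion carriers (0.589, 0.575 to 0.604), lipid and choline carriers (0.617, 0.592 to 0.642), organic ion and peptide carriers (0.614, 0.585 to 0.644), sugar carriers (0.574, 0.550 to 0.599) and vitamin and haem carriers (0.536, 0.511 to 0.561). The last of these rests in large part on Slc46a3, without which the other 6 summed to 260.3 CPM in T-ALL and 327 CPM in normal spleen, a ratio of 0.795. The ratio lay nearer 1 for amino acid carriers (1.01, 0.994 to 1.03), metal carriers (0.971, 0.943 to 1.00) and carriers of nucleosides and nucleotide sugars (1.15, 1.11 to 1.19). In bone marrow the T-ALL to normal ratio of the 10 classes ran from 0.859 (0.830 to 0.889) for nucleosides and nucleotide sugars to 1.39 (1.33 to 1.46) for sugars.

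**Figure D1:**
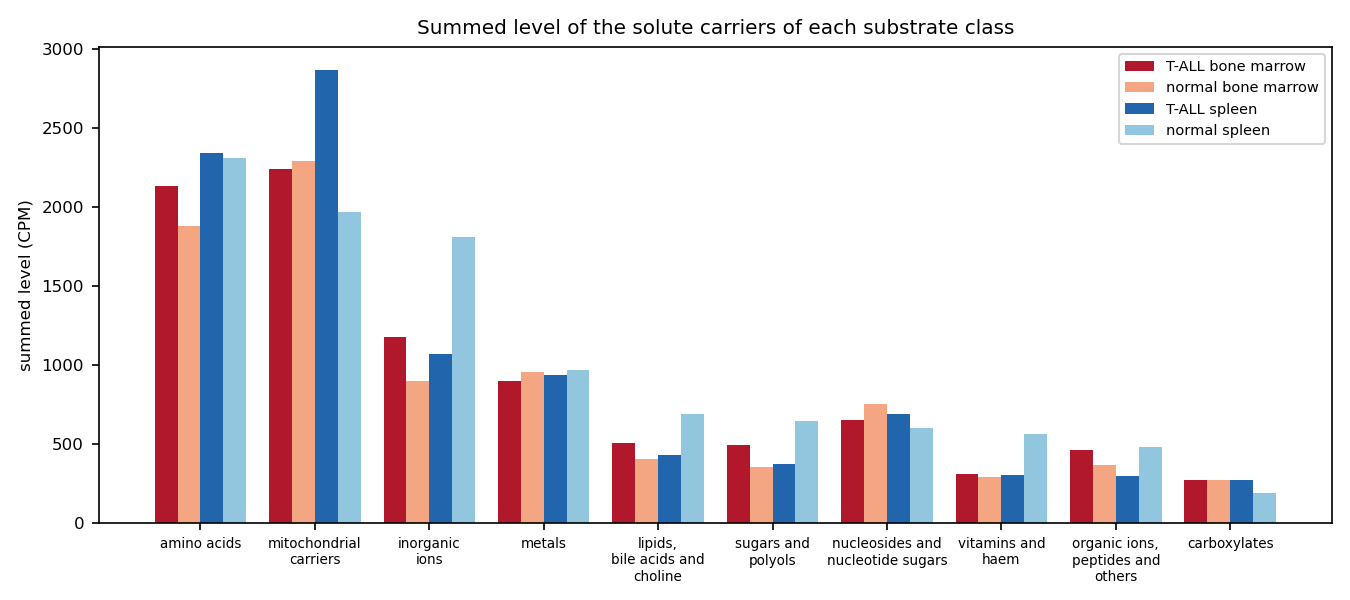
Bars give the summed CPM of the solute carriers of each of 10 substrate classes in the 4 libraries, 1 library per bar. The T-ALL spleen bar is the highest for mitochondrial carriers (2867 CPM), and the normal spleen bar is the highest for inorganic ions (1808 CPM).

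In bone marrow, T-ALL was higher for 14 solute carriers and lower for 1, of 140 with 10 CPM or more in either library. That is 10% and 0.714% of them, against 8.01% and 1.03% of the 9716 genes compared. The members' median log2 fold was 0.03, and that of all genes -0.04. Of the 140, 13 reached 10 CPM in 1 library alone, and 6 of these are among the calls. The 14 higher members were carriers of peptides, sugars, amino acids, ions, a carboxylate carrier and Slc46a3. The other 14 members were under 10 CPM in both libraries. The macrophage list had a median log2 fold of 3.08 in this comparison, and none of the 140 members lay above that value. Beside them 13 of 14 T cell genes were higher, 8 of 12 neutrophil precursor genes were lower, and 3 of 8 mature neutrophil genes (Retnlg, Mmp8 and Mmp9) were higher with none lower (median 0.75). The part of these cells in the result was not tested.

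The peptide and histidine carriers of lysosomes were both higher in T-ALL bone marrow. Slc15a3 (Gene ID 65221) stood at 74.6 CPM in T-ALL bone marrow, against 11.4 CPM in normal bone marrow, and at 107 CPM in T-ALL spleen, against 109 CPM in normal spleen. It was thus low in normal bone marrow alone, 6.56-fold higher in T-ALL (5.37 to 8.09). Slc15a4 was at 83.1 CPM in T-ALL bone marrow, against 38.2 CPM in normal bone marrow, 2.17-fold higher (1.92 to 2.46). Slc22a23, an orphan of the organic ion family, had 13.8 CPM in T-ALL and 4.26 CPM in normal bone marrow, 3.25-fold higher (2.28 to 4.72).

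The 10 sugar carriers compared gave 3 of the 14 calls, against 8.01% higher among all genes compared. Slc37a2, a sugar phosphate exchanger of the endoplasmic reticulum, was at 42.0 CPM in T-ALL bone marrow, against 7.51 CPM in normal bone marrow, 5.59-fold higher (4.35 to 7.27). Slc2a6 (GLUT6), a glucose transporter relative found on lysosomes, had 53.8 CPM in T-ALL and 10.04 CPM in normal bone marrow, 5.35-fold higher (4.31 to 6.71). Slc37a3 had 19.2 and 7.51 CPM in T-ALL and normal bone marrow, 2.56-fold higher (1.94 to 3.40). The neuronal-type glucose transporter Slc2a3 did not pass, at 177 CPM in T-ALL and 133 CPM in normal bone marrow, a ratio of 1.33 (1.24 to 1.43).

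The 19 amino acid carriers compared gave 3 more. Slc1a3, a glutamate and aspartate transporter best known from astrocytes, had 10.8 CPM in T-ALL bone marrow, against 0.812 CPM in normal bone marrow. Its fold of 13.4 has a wide interval (6.52 to 31.8), since the normal library held few of its reads. Slc43a2 (LAT4), which carries large neutral amino acids, stood at 191 CPM in T-ALL and 67.8 CPM in normal bone marrow, 2.82-fold higher (2.58 to 3.08). Slc7a7, a light chain that exports arginine and lysine, had 30.2 and 11.8 CPM in T-ALL and normal bone marrow, 2.56-fold higher (2.06 to 3.21). Slc1a5 (ASCT2), the carrier of glutamine and other neutral amino acids, was at 192 and 199 CPM in T-ALL and normal bone marrow, and at 211 and 189 CPM in T-ALL and normal spleen, with ratios of 0.962 (0.902 to 1.03) in bone marrow and 1.12 (1.05 to 1.19) in spleen.

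Of the 18 ion carriers compared, 3 were higher and none lower in T-ALL bone marrow. Slc8a1 (NCX1), a sodium-calcium exchanger, had 65.9 CPM in T-ALL and 18.4 CPM in normal bone marrow, 3.59-fold higher (3.04 to 4.26). Slc9a9, a sodium-proton exchanger of endosomes, had 56.6 and 20.5 CPM in T-ALL and normal bone marrow, 2.76-fold higher (2.34 to 3.26). Slc12a2 (NKCC1), the sodium-potassium-chloride cotransporter, had 62.7 and 26.8 CPM in T-ALL and normal bone marrow, 2.34-fold higher (2.02 to 2.72). Slc16a9 had 12.3 and 2.43 CPM, 5.07-fold higher (3.24 to 8.23), and Slc46a3 had 33.8 and 8.93 CPM, 3.79-fold higher (2.98 to 4.85).

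The single lower member in T-ALL bone marrow was Slc43a3, a carrier of purine nucleobases. It stood at 83.3 CPM in T-ALL bone marrow, 173 CPM in normal bone marrow, 34.5 CPM in T-ALL spleen and 28.4 CPM in normal spleen. The bone marrow values differ 2.07-fold (1.90 to 2.26), and both are above those of spleen. None of the 28 mitochondrial carriers compared and none of the 21 metal carriers passed 2-fold in bone marrow in either direction, against 8.01% higher and 1.03% lower of all genes. Their median log2 folds were -0.06 and 0.06.

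**Figure D2:**
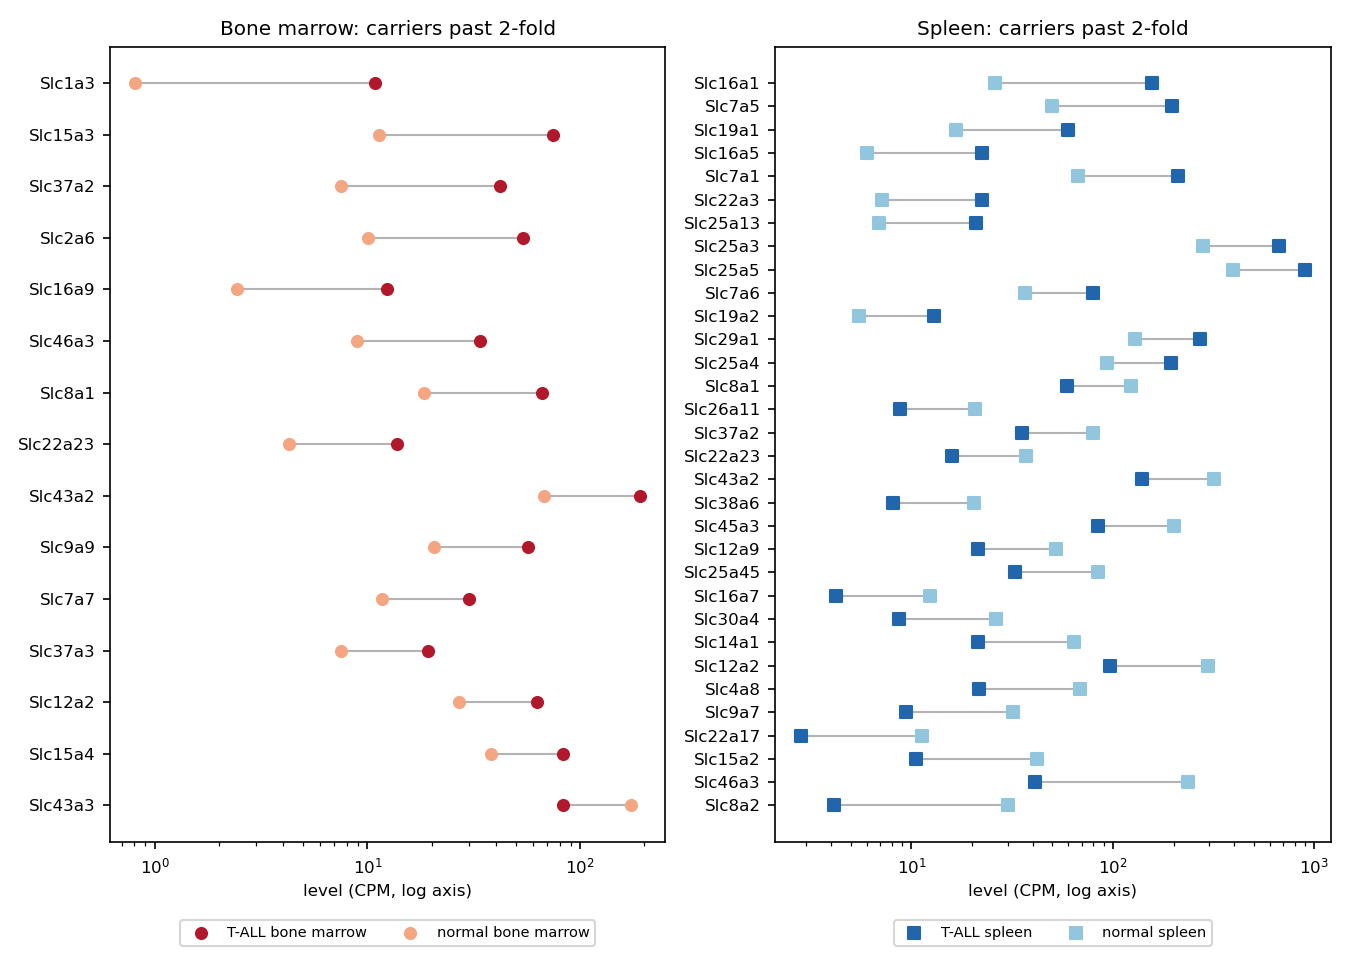
Points give the CPM, on a log axis, of each solute carrier past 2-fold in bone marrow (left) and spleen (right), 1 library per point, ordered by log2 fold. In bone marrow 14 of 15 have the T-ALL point to the right, and in spleen 13 of 32.

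In spleen, T-ALL was higher for 13 solute carriers and lower for 19, of 150 with 10 CPM or more in either library. The shares were 8.67% and 12.7%, against 10.3% and 11% of the 9774 genes compared. The members' median log2 fold was -0.27, below the -0.08 of all genes, and 103 of the 150 members lay below 0. Of the 150, 20 reached 10 CPM in 1 library alone, and 11 of these are among the calls. Higher were carriers of cationic and large amino acids, monocarboxylates, folate, thiamine and nucleosides, and the main ADP/ATP and phosphate carriers of mitochondria. Lower were 7 ion carriers, 4 carriers of organic ions, peptides and urea, 2 amino acid carriers, 2 sugar carriers and 1 each of the carboxylate, metal, mitochondrial and vitamin classes. In the same pair of libraries all 16 cell cycle genes and 12 of 14 T cell genes were higher in T-ALL, and 11 of 20 macrophage and 8 of 9 dendritic cell genes were lower, with median log2 folds of 2.03, 1.46, -1.01 and -2.20. Their part in the members' differences was not tested.

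The monocarboxylate carriers include the member with the largest upward fold in T-ALL spleen. Slc16a1 (MCT1), the proton-coupled carrier of lactate and pyruvate, stood at 156 CPM in T-ALL spleen, against 25.8 CPM in normal spleen, 6.03-fold higher (5.24 to 6.96). In bone marrow it had 88.5 CPM in T-ALL and 129 CPM in the normal library, so normal spleen was the low library. Bsg (basigin), the chaperone that brings this carrier to the cell surface, was at 223 CPM in T-ALL and 145 CPM in normal spleen, a ratio of 1.54 (1.43 to 1.65). Slc16a5 had 22.5 CPM in T-ALL and 6.04 CPM in normal spleen, 3.73-fold higher (2.75 to 5.13). In bone marrow Slc16a5 had 6.87 CPM in T-ALL and 0.203 CPM in the normal library, under the minimum for a call. Slc16a7 (MCT2) went the other way, with 4.22 CPM in T-ALL and 12.4 CPM in normal spleen, 2.94-fold lower (2.02 to 4.35). Slc19a1, the reduced folate carrier, had 59.9 CPM in T-ALL and 16.7 CPM in normal spleen, 3.59-fold higher (2.99 to 4.33), and Slc19a2, a thiamine carrier, 12.9 and 5.48 CPM, 2.35-fold higher (1.67 to 3.35).

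Of the Slc7 family of amino acid carriers, Slc7a5, Slc7a1 and Slc7a6 came next. Slc7a5 (LAT1), which brings leucine and other large amino acids into growing cells, had 197 CPM in T-ALL and 50.1 CPM in normal spleen, 3.94-fold higher (3.55 to 4.38). Slc7a1 (CAT1), the arginine and lysine carrier, had 210.03 and 67.1 CPM in T-ALL and normal spleen, 3.13-fold higher (2.85 to 3.44). Slc7a6, a light chain that also carries cationic amino acids, had 79.6 and 36.5 CPM, 2.18-fold higher (1.91 to 2.49), though reads of the overlapping Slc7a6os cannot be told apart without strand. Slc3a2, the heavy chain partner of Slc7a5 and Slc7a6, differed less, at 219 CPM in T-ALL and 182 CPM in normal spleen, a ratio of 1.20 (1.13 to 1.29). The other Slc7 carriers kept were lower in T-ALL than in normal spleen, short of 2-fold. Their ratios were 0.518 (0.402 to 0.663) for Slc7a2, 0.674 (0.597 to 0.760) for Slc7a7 and 0.624 (0.552 to 0.704) for Slc7a8. In bone marrow Slc7a5 stood at 101 CPM in T-ALL and 151 CPM in the normal library and Slc7a1 at 83.5 and 117 CPM, ratios of 0.671 (0.618 to 0.728) and 0.714 (0.651 to 0.783). Lower in T-ALL spleen were Slc43a2, with 139 CPM against 319 CPM in normal spleen, 2.29-fold lower (2.15 to 2.45), and Slc38a6, with 8.12 against 20.5 CPM, 2.52-fold lower (1.92 to 3.34).

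Of the 32 mitochondrial carriers, 4 were higher in T-ALL spleen and 1 was lower, against 10.3% and 11% of all genes. Their median log2 fold was -0.04. Slc25a5 had 903 CPM in T-ALL and 394 CPM in normal spleen, 2.29-fold higher (2.20 to 2.38), and its relative Slc25a4 195 and 93.3 CPM, 2.09-fold higher (1.93 to 2.28). Slc25a3 had 669 and 281 CPM in T-ALL and normal spleen, 2.38-fold higher (2.27 to 2.49). Slc25a13 (citrin), the aspartate-glutamate carrier, had 21.0 and 6.94 CPM, 3.03-fold higher (2.26 to 4.10). Slc25a45 was lower, at 32.5 CPM in T-ALL and 84.2 CPM in normal spleen, 2.59-fold (2.27 to 2.97). The class sum was 1.46-fold higher in T-ALL spleen while the class median lay near 0. Slc29a1 (ENT1), the equilibrative nucleoside transporter of the plasma membrane, had 272 and 128 CPM in T-ALL and normal spleen, 2.12-fold higher (1.98 to 2.27). Slc22a3 (OCT3), an organic cation transporter, had 22.5 and 7.16 CPM, 3.15-fold higher (2.37 to 4.23), below its 70.6 and 81.4 CPM in T-ALL and normal bone marrow.

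Ion carriers were lower in 7 of 22 and higher in none in T-ALL spleen, against 11% lower and 10.3% higher of all genes compared. Slc8a2 (NCX2), a sodium-calcium exchanger known from neurons, had 38 reads in T-ALL spleen and 271 reads in normal spleen, or 4.11 and 30.3 CPM. Both bone marrow libraries had 0 reads, which allows up to 0.322 CPM in T-ALL and 0.304 CPM in normal bone marrow. In spleen it was 7.37-fold lower (5.23 to 10.6). Slc8a1 had 58.9 CPM in T-ALL and 124 CPM in normal spleen, 2.10-fold lower (1.89 to 2.33). Slc9a7, a sodium-proton exchanger of the Golgi encoded on the X chromosome, had 9.42 and 31.9 CPM, 3.38-fold lower (2.65 to 4.35). Slc4a8, a bicarbonate exchanger, had 21.7 and 68.8 CPM, 3.18-fold lower (2.70 to 3.75), and Slc12a2 had 97.0 and 298 CPM, 3.08-fold lower (2.85 to 3.32). Slc12a9 and Slc26a11 complete the 7, at 21.4 and 8.77 CPM in T-ALL and 52.0 and 20.6 CPM in normal spleen.

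Among the lower members Slc46a3 had the largest difference after Slc8a2. It stood at 40.9 CPM in T-ALL spleen, against 235 CPM in normal spleen, 5.74-fold lower (5.14 to 6.42). Slc15a2 (PEPT2), a peptide transporter of the plasma membrane, had 10.5 CPM in T-ALL and 42.2 CPM in normal spleen, 4.02-fold lower (3.20 to 5.07). Slc22a17 had 2.81 and 11.3 CPM, 4.01-fold lower (2.59 to 6.44), and Slc22a23 15.9 and 36.9 CPM, 2.32-fold lower (1.90 to 2.84). Slc14a1, the urea transporter of red cells, had 21.4 CPM in T-ALL and 64.4 CPM in normal spleen, 3.01-fold lower (2.55 to 3.55). The erythroid list summed to 423 CPM in T-ALL and 259.9 CPM in normal spleen, and without Tfrc to 132 and 139.9 CPM. The part of red cells in the Slc14a1 difference was not tested. Slc45a3 had 84.7 and 201 CPM, 2.38-fold lower (2.18 to 2.59), and Slc37a2 35.4 and 79.6 CPM, 2.25-fold lower (1.97 to 2.57). Of 21 metal carriers 1 passed, Slc30a4, a zinc carrier of vesicles, with 8.66 CPM in T-ALL and 26.3 CPM in normal spleen, 3.04-fold lower (2.35 to 3.96).

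Promoters are shown for the solute carrier with the largest fold upwards and for the pair with the largest folds downwards in T-ALL spleen, so that their letters can be set beside the levels. They are the 250 bases before the RefSeq start, GRCm38.p6, written 5′ to 3′ on the gene's strand, with matches to 4 motifs on either strand in capitals. They lie for Slc16a1 at chr3:104638414-104638663 on the plus strand, for Slc46a3 at chr5:147894816-147895065 on the minus strand and for Slc8a2 at chr7:16129576-16129825 on the plus strand.
Slc16a1: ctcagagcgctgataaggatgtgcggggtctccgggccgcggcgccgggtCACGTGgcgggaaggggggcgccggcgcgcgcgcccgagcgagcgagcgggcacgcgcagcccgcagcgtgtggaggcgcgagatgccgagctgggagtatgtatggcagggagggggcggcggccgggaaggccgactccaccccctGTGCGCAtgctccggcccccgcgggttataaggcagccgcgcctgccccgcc
Slc46a3: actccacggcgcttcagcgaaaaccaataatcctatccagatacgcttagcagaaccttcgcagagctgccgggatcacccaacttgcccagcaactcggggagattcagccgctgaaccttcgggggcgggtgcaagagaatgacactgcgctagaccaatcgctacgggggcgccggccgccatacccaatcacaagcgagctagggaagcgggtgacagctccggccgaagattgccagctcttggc
Slc8a2: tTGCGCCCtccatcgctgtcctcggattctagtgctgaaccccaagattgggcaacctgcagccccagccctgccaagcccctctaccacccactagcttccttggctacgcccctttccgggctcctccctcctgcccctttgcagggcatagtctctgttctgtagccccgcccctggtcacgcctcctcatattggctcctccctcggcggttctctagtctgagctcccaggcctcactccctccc
The motifs searched were the letters TGATGNAA of the amino acid response element, CACGTG, known as the E-box, the GATA letters AGATAA and, as the last, TGCGCNC. No motif contains another. The Slc16a1 window holds CACGTG and TGCGCNC, that of Slc8a2 holds TGCGCNC, and that of Slc46a3 holds none of the 4. RefSeq windows were found for 116 of the 154 members, 154 windows in all. CACGTG stood in 13.6% of them, in 8.60% of the windows of genes at 10 CPM or more and in 6.02% of all 32851 windows. The shares in the same order were 2.60%, 1.98% and 3.45% for TGATGNAA, 7.79%, 5.89% and 9.99% for AGATAA, and 18.2%, 21.4% and 12.5% for TGCGCNC. Of the 21 windows of members higher in T-ALL spleen 3 held CACGTG, and of the 17 windows of the lower members 1 did. A match is a description of the letters and was tested for no function.

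Between the organs' T-ALL comparisons, which share no library, no solute carrier was called the same way in both. Of the 14 members higher in T-ALL bone marrow 6 were lower in T-ALL spleen, which is 42.9% of the 14 and 31.6% of the 19 lower in spleen. Over all genes 289 crossed in this way, 37.1% of the 778 higher in T-ALL bone marrow and 26.8% of the 1080 lower in T-ALL spleen, so the members lay close to the whole library. Over all genes, 82 were called higher in both organs, 10.5% of the 778 and 8.13% of the 1008 higher in T-ALL spleen. Called lower in both were 12, 12% of the 100 lower in T-ALL bone marrow and 1.11% of the 1080 lower in T-ALL spleen. The 6 members higher in T-ALL bone marrow and lower in T-ALL spleen are Slc12a2, Slc22a23, Slc37a2, Slc43a2, Slc46a3 and Slc8a1. In each of these 6, the normal spleen library held the highest level, the normal bone marrow library the lowest, and both T-ALL libraries lay between. Slc43a2, for example, had 191 CPM in T-ALL bone marrow, 67.8 CPM in normal bone marrow, 139 CPM in T-ALL spleen and 319 CPM in normal spleen. The summed macrophage list has the same order of normal libraries, lowest in normal bone marrow at 3965 CPM, highest in normal spleen at 14611 CPM, with the T-ALL libraries between.

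**Figure D3:**
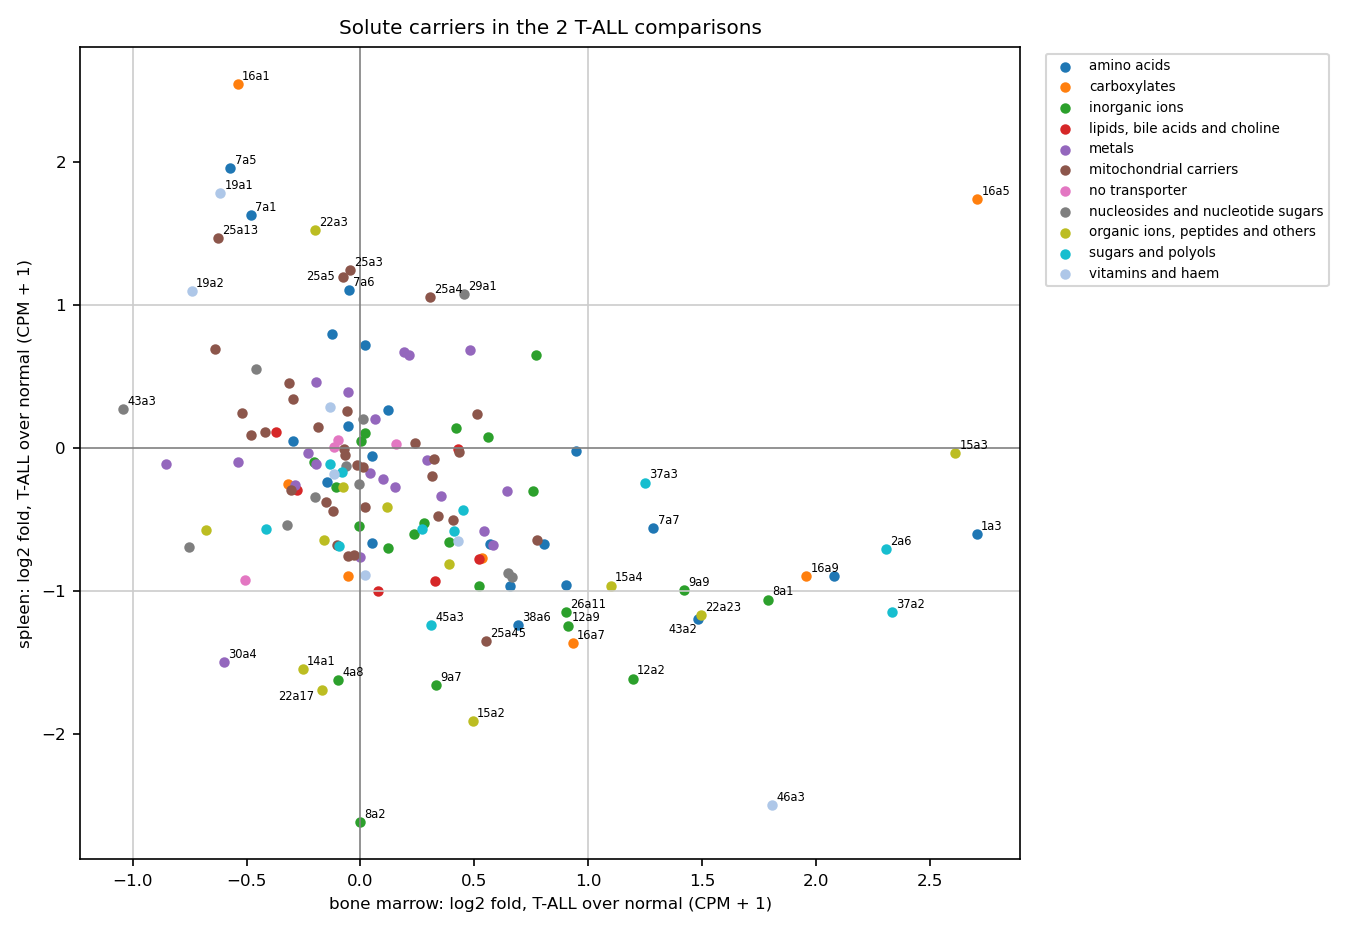
Each point is 1 of the 154 genes kept, with the log2 fold of T-ALL over normal in bone marrow on the x axis and in spleen on the y axis, coloured by substrate class, and grey lines at 2-fold. Labels leave out the letters Slc. The lower right holds the 6 members that were higher in T-ALL bone marrow and lower in T-ALL spleen, and Slc16a1 is the highest point. Slc16a5, at the upper right, was under 10 CPM in both bone marrow libraries.

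Slc29a3 (ENT3), the nucleoside carrier of lysosomes, was at 72.0 CPM in T-ALL bone marrow, 45.7 CPM in normal bone marrow, 56.3 CPM in T-ALL spleen and 104 CPM in normal spleen. It was highest in normal spleen and passed 2-fold in neither T-ALL comparison, with ratios of 1.58 (1.40 to 1.78) in bone marrow and 0.542 (0.486 to 0.604) in spleen. The plasma membrane carrier Slc29a1 was highest in T-ALL spleen.

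Between the organs of normal mice, 36 solute carriers were higher in spleen and 15 lower, of 152 compared. The shares were 23.7% and 9.87%, against 16.1% and 14% of 10072 genes, and the members' median log2 fold was 0.23, against -0.04. Of the 152, 31 reached 10 CPM in 1 library alone, and 23 of these are among the calls. In the same libraries 18 of 20 macrophage genes were higher in spleen and 2 lower (median log2 fold 4.26). Of the 152 members, 148 lay below that median. Also higher in spleen were 13 of 14 T cell genes and 8 of 9 dendritic cell genes. Of 10 B cell genes 6 were higher and 3 lower, and all 16 cell cycle genes were lower. The part of these lists in the members' differences was not tested. In T-ALL mice 10 solute carriers were higher in spleen and 19 lower, of 145 compared. These shares were 6.90% and 13.1%, against 5.44% and 11% of 9852 genes, with medians of 0.01 for members and for all genes. The absolute difference between organs was larger in normal than in T-ALL mice for 61.0% of the members and for 61.8% of all genes at 10 CPM or more, so the members followed the whole library in this.

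Slc1a3, Slc16a9, Slc45a3, Slc4a8 and Slc12a7 were higher in spleen in both normal and T-ALL mice. These 5 are 13.9% of the 36 in normal mice and 50% of the 10 in T-ALL mice. Over all genes 298 were higher in both, 18.3% of the 1626 in normal mice and 55.6% of the 536 in T-ALL mice. Slc1a3 had 38.7 CPM in normal spleen and 0.812 CPM in normal bone marrow, 47.7-fold higher (23.9 to 111), and 25.2 and 10.8 CPM in T-ALL spleen and bone marrow, 2.33-fold higher (1.83 to 2.97). Slc16a9 had 67.1 CPM in normal spleen and 2.43 CPM in normal bone marrow, 27.6-fold higher (18.3 to 43.4), and 35.7 and 12.3 CPM in T-ALL spleen and bone marrow. Slc45a3 had 201 and 20.4 CPM in normal spleen and bone marrow, 9.87-fold higher (8.53 to 11.5), and 84.7 and 25.5 CPM in T-ALL spleen and bone marrow, 3.31-fold higher (2.86 to 3.85). Slc46a3 was 26.3-fold higher (21.3 to 33.0) in normal spleen than in normal bone marrow, while its T-ALL levels were 40.9 CPM in spleen and 33.8 CPM in bone marrow. Slc7a2 (CAT2), an arginine carrier of activated macrophages, had 20.9 CPM in normal spleen and 1.01 CPM in normal bone marrow, 20.6-fold higher (11.0 to 43.7), and 10.8 and 7.51 CPM in T-ALL spleen and bone marrow. Slc8a2 had 271 reads in normal spleen and 0 in normal bone marrow, and the exact binomial interval of their ratio begins at 80.4-fold.

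The carriers higher in bone marrow in both conditions numbered 10, which is 66.7% of the 15 in normal mice and 52.6% of the 19 in T-ALL mice. Over all genes 514 were, 36.4% of the 1413 in normal mice and 47.3% of the 1086 in T-ALL mice. Slc18a2 (VMAT2), the vesicular carrier of histamine and other amines, had 3.36 CPM in T-ALL spleen and 54.9 CPM in T-ALL bone marrow, 16.4-fold lower in spleen (11.4 to 24.4). In normal mice it had 4.25 CPM in spleen and 57.9 CPM in bone marrow, 13.6-fold lower (9.81 to 19.5). Slc22a4, a carrier of ergothioneine, Slc22a15 and Slc22a3 were also lower in spleen. Slc22a4 had 0.650 and 10.1 CPM in T-ALL spleen and bone marrow and 1.45 and 16.7 CPM in normal spleen and bone marrow. Basophil and mast cell genes moved with these 4, at 31.9 CPM in T-ALL spleen and 1507 CPM in T-ALL bone marrow, and at 46.5 CPM in normal spleen and 2979 CPM in normal bone marrow. Neutrophil precursor genes also moved with them, at 195 CPM in T-ALL spleen and 19854 CPM in T-ALL bone marrow, and at 421 CPM in normal spleen and 37319 CPM in normal bone marrow. All 8 mature neutrophil genes were lower in spleen in both conditions, with median log2 folds of -6.56 in T-ALL and -3.34 in normal mice. Their part was not tested. Slc16a3 (MCT4), the lactate exporter of glycolytic cells, had 18.2 and 101 CPM in T-ALL spleen and bone marrow, 5.56-fold lower in spleen (4.71 to 6.59), and 31.7 and 69.5 CPM in normal spleen and bone marrow. Its relative Slc16a1 was 4.998-fold lower (4.34 to 5.78) in spleen in normal mice, but had 156 CPM in spleen and 88.5 CPM in bone marrow of T-ALL mice. Slc27a4, a fatty acid transport protein, and Slc25a24, an ATP-magnesium and phosphate carrier, were lower in T-ALL spleen than in T-ALL bone marrow, the first by 4.79-fold (3.9999 to 5.76) and the other by 4.67-fold (3.90 to 5.61). Slc2a6 was higher in spleen in normal mice, 3.81-fold (3.04 to 4.81), and lower in spleen in T-ALL mice, 2.33-fold (1.98 to 2.75), and Slc19a1 did the opposite, at 2.57-fold lower (2.13 to 3.12) and 2.17-fold higher (1.87 to 2.53).

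**Figure D4:**
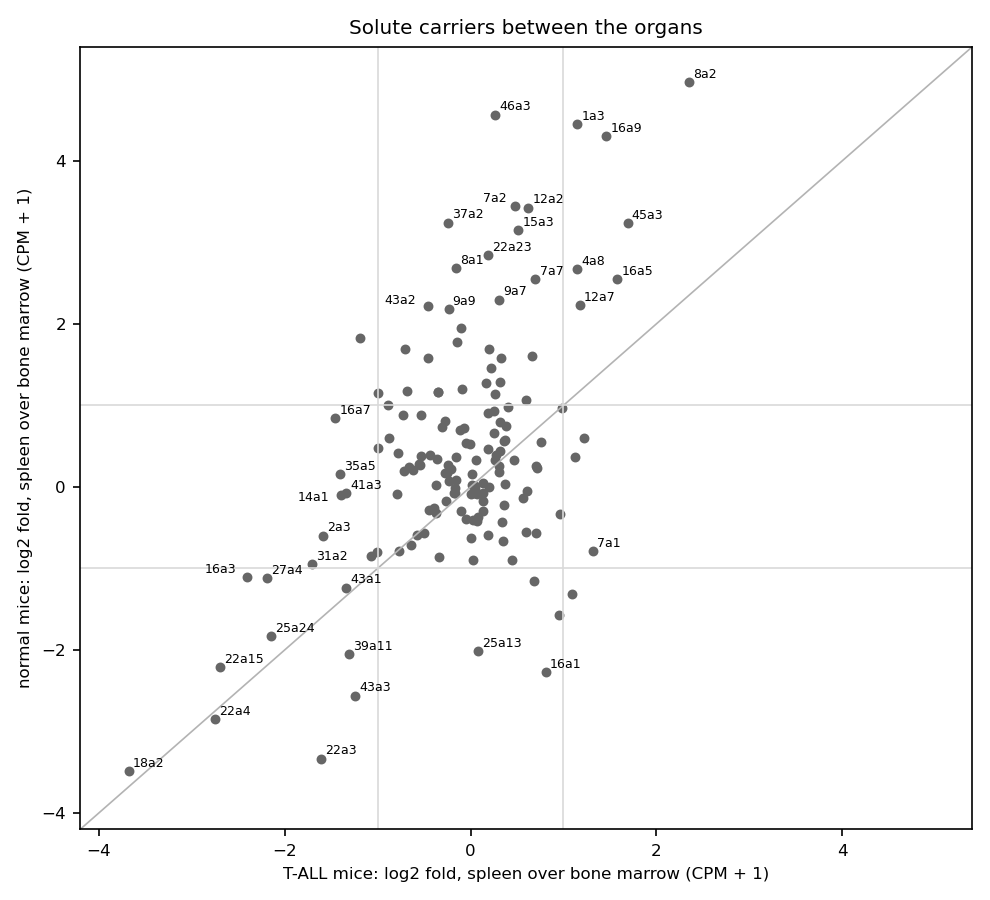
Each point is 1 of the 154 genes kept, with the log2 fold of spleen over bone marrow in T-ALL mice on the x axis and in normal mice on the y axis, the diagonal marking equal folds and grey lines 2-fold. Labels leave out the letters Slc. Slc46a3 lies at 0.27 on the x axis and 4.57 on the y axis, and Slc18a2 lies low on both.

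Carriers under other symbols and partner proteins were set beside the members. Of 36 with a read, 2 of 30 compared were higher in T-ALL bone marrow and none lower (median log2 fold 0.02). In spleen 1 of 28 was higher and 7 lower (median -0.56). Between the organs, 5 of 30 were higher in spleen and 6 lower in normal mice (median -0.05). In T-ALL mice none of 31 was higher in spleen and 9 were lower (median -0.49). Over all genes compared, 8.01% were higher and 1.03% lower in T-ALL bone marrow, and 10.3% and 11% in T-ALL spleen. Between the organs, 16.1% were higher and 14% lower in spleen in normal mice, and 5.44% and 11% in T-ALL mice. Slco2b1, an organic anion transporter, had 70.8 CPM in T-ALL bone marrow, against 6.70 CPM in normal bone marrow. In spleen it had 48.9 CPM in T-ALL mice, against 152 CPM in normal spleen. It was 10.6-fold higher (8.20 to 13.8) in bone marrow and 3.11-fold lower (2.80 to 3.47) in spleen, the same crossing as in the 6 members above. Sfxn5, a sideroflexin, crossed likewise in value, at 25.4 and 4.36 CPM in T-ALL and normal bone marrow and 3.36 and 9.51 CPM in T-ALL and normal spleen, where it was under the minimum. Tfrc, the transferrin receptor, had 291 CPM in T-ALL and 120 CPM in normal spleen, 2.43-fold higher (2.26 to 2.61). Lower in T-ALL spleen were Spns3 by 5.95-fold (4.67 to 7.67), Ank by 3.49-fold (2.84 to 4.30) and Slco3a1 by 3.39-fold (2.55 to 4.56). Mfsd2a, a lysolipid carrier, stayed under 10 CPM, at 8.77 CPM in T-ALL and 1.90 CPM in normal spleen.

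Genes of the amino acid response, which adjusts transport and synthesis to supply, moved in part with Slc7a5, Slc7a1 and Slc7a6 in spleen. Of 12 compared, 4 were higher and 2 lower in T-ALL spleen, with a median log2 fold of 0.58, against 10.3% higher and 11% lower of all genes. The 4 higher genes encode enzymes of serine and glycine synthesis. Psat1 had 169 CPM in T-ALL and 26.2 CPM in normal spleen, 6.45-fold higher (5.62 to 7.43), and Shmt2 363 and 67.3 CPM, 5.395-fold higher (4.95 to 5.89). Phgdh was 4.41-fold higher (4.01 to 4.87) and Psph 2.20-fold higher (1.74 to 2.79). The regulator Atf4 did not pass, at 300.3 CPM in T-ALL and 229 CPM in normal spleen. Sesn2, a leucine sensor, and Nupr1, a stress response gene, were lower in T-ALL spleen, Sesn2 by 2.83-fold (2.39 to 3.37) and Nupr1 by 2.56-fold (1.77 to 3.75). In bone marrow the same pair were the 2 higher genes of 13, Sesn2 at 2.16-fold (1.67 to 2.83) and Nupr1 at 6.23-fold (4.12 to 9.75), with none lower and a median of -0.25. Over all genes 8.01% were higher and 1.03% lower in T-ALL bone marrow. Vldlr, of the same list, had 0 reads in T-ALL spleen.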

How the data were processed

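RNA sequencing of sorted macrophages gave 4 libraries, grouped by their titles. Each deposited table lists, per the file headers, uniquely mapped read counts, gene length and RPKM, a level per transcript length and library size computed by the authors. The deposited counts sum to the header totals, and the RPKM was recomputed for the members within 4.16e-07%. Genes without a line were set to 0. No source used here names the aligner, build, annotation or strand setting. Of 17008 Gene IDs, 16951 were in a RefSeq table of GRCm38.p6, which restored 23 symbols that had become dates.

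CPM used library totals with TMM scaling from edgeR 4.0.16 under R 4.3.3. The factors were 0.991 for T-ALL bone marrow, 1.00 for normal bone marrow, 1.01 for T-ALL spleen and 0.996 for normal spleen. The tables and intervals were made with scipy 1.17.1 and pandas 2.3.3, and the plots with matplotlib 3.10.9. With 1 library per group no p-value was computed. The size rule was tested on simulated data for the bone marrow comparison of T-ALL and normal mice. Members, substrate classes and 11 gene lists were chosen with earlier results of these data known. The named genes are, for each class in each comparison, up to 4 called members of largest fold each way, the members highest in RPKM, and the members past the size rule in both T-ALL comparisons. From the lists of other carriers and of the amino acid response, up to 4 genes each way were named. Slc12a9, Slc26a11, Bsg, Atf4, Mfsd2a, Vldlr, Retnlg, Mmp8 and Mmp9 were named after their values were seen. The alternatives were 2 other scalings, 2 other pseudocounts, 2 other minimums, the RPKM, 2 other fold thresholds, and leaving out genes that are no transporters. Unique reads of near-identical copies (Slc25a4, Slc25a5 and their pseudogenes) and of overlapping genes (Slc7a6 and Slc7a6os) are uncertain.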

Additional observations from a re-analysis of the deposited data

Results flagged for a closer look

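Members that were past 2-fold in opposite directions in the T-ALL comparisons of the 2 organs are listed here, as the log2 fold in bone marrow minus the log2 fold in spleen. The difference was 4.30 for Slc46a3, 3.48 for Slc37a2, 2.85 for Slc8a1, 2.81 for Slc12a2, 2.67 for Slc43a2 and 2.66 for Slc22a23. With 1 library per group the difference between organs was not tested. The macrophage list summed to 11635 CPM in T-ALL bone marrow, against 3965 CPM in normal bone marrow, and to 8030 CPM in T-ALL spleen, against 14611 CPM in normal spleen, so it moved in the same directions. The part of this in the 6 differences was not tested.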

How the results depend on the processing

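No paired analysis was possible because each group has 1 library and no test was made. Of 122 recomputed counts and medians, 93 stayed within 1.5 times the reported count or 0.1 of the reported median, and 29 did not. The 154 members were the same number under total-count and median-of-ratios scaling. With a minimum of 50 CPM, 7 members were higher in T-ALL bone marrow, 10 lower in T-ALL than in normal spleen, 19 higher and 9 lower in normal spleen than in normal bone marrow, and 6 higher and 10 lower in T-ALL spleen than in T-ALL bone marrow; the organ medians became 0.0189 in normal and -0.10 in T-ALL mice. With no minimum, 2 members were lower in T-ALL bone marrow, 29 lower in T-ALL spleen, 23 lower in normal spleen and 31 lower in T-ALL spleen than in T-ALL bone marrow, with a median of -0.15 for the last comparison. This median and that at 50 CPM differ in sign from the reported 0.01. With the deposited RPKM and a minimum of 5 RPKM in the higher library, 9 members were higher in T-ALL bone marrow. On log2(RPKM + 1) Slc22a23 in bone marrow (0.92) and Slc8a1 in spleen (-0.86) were under 2-fold. Without the pseudocount their RPKM was 3.21-fold higher and 2.07-fold lower in T-ALL, so the addition of 1 brought both folds under 2-fold. In bone marrow Slc22a23, at 2.20 RPKM in T-ALL and 0.685 RPKM in the normal library, was also under the minimum of 5 RPKM. So were Slc1a3, Slc16a9 and Slc8a1 there, at 2.55, 3.43 and 3.51 RPKM in T-ALL. A 1.5-fold rule gave 26 higher and 9 lower in T-ALL bone marrow, 20 higher and 53 lower in T-ALL spleen, 29 lower in normal spleen than in normal bone marrow, and 25 higher and 33 lower in T-ALL spleen than in T-ALL bone marrow. A 4-fold rule gave 4 higher and 0 lower in T-ALL bone marrow, 1 higher and 2 lower in T-ALL spleen, 17 higher and 8 lower in normal spleen than in normal bone marrow, and 0 higher and 6 lower in T-ALL spleen than in T-ALL bone marrow. The shifts under other minimums and fold rules follow from fewer or more genes passing the stricter or looser limits. Of 1848 log2 folds of 66 named members, none changed sign where called, and 47 moved by more than their counting interval. The limits are 1 library per group, RNA of other cell types in each library and sex-linked transcripts that differed by condition and between the T-ALL libraries.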
